A study of Mus musculus with 12 samples.

Results

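Colonic epithelium from mice of 1 breeding line, labelled EVCER, was compared between 4 libraries labelled as intestinal knockouts of Ehf and 4 labelled wild-type. They were chosen by their labels alone and make up 8 of the 12 libraries of the series. The group called Control OIL held C57BL/6 mice aged 6 weeks that were labelled wild-type and given sunflower oil. The group called Ehf IKO held C57BL/6 mice of the same age that were labelled Ehf intestinal knockout and given tamoxifen. The deletion of Ehf and the exposure to tamoxifen therefore changed together, and in this comparison their effects cannot be told apart. A further group, Control TMX, held 4 wild-type mice of the same strain and age given tamoxifen. Its source names carry the prefix VilCreER, for Villin CreERT2, a Cre recombinase that the Villin promoter drives in intestinal epithelium and that tamoxifen activates. Its values are given only beside those of the 8 libraries. The labels state neither the alleles carried by EVCER mice, nor the exons of Ehf that were deleted, nor the dose of tamoxifen or the time after it. Epithelial cells had been shaken off the opened colon in an EDTA buffer and pelleted after the smooth muscle was taken away, and total RNA was sequenced. Each library has its own animal number in the labels and was used as 1 sample.

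EHF belongs to the ETS family of transcription factors, in the branch that is found in epithelial cells. ETS factors bind DNA at sites built around the core GGAA, and EHF is known for roles in the differentiation of surface epithelia. The colonic epithelium renews itself from stem cells at the base of crypts. Their progeny become absorptive colonocytes, which take up water, ions and minerals through a brush border, or secretory cells such as goblet cells, which make mucus.

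The stretches of 250 bases before the start of 6 genes are shown because these were the 3 falls and the 3 rises of smallest p among genes with a promoter in the RefSeq table (GRCm38.p6) and a mean log2 CPM of at least 1. CPM is a count scaled to the size of its library. Cd177 (chr7:24760312-24760561, minus strand), Lpo (chr11:87826115-87826364, minus strand) and Ceacam10 (chr7:24776917-24777166, plus strand) fell. Ambp (chr4:63154173-63154422, minus strand), Alpi (chr1:87101607-87101856, minus strand) and Id4 (chr13:48260866-48261115, plus strand) rose. The starts are those of the RefSeq table. For Lpo and Ambp the stretch lies inside the wider Ensembl span used for counting (Lpo 87806428 to 87828289, Ambp 63143275 to 63154799). Each stretch is written 5′ to 3′ on the strand of its gene, and capitals mark the ETS core GGAA or its complement TTCC.
Cd177: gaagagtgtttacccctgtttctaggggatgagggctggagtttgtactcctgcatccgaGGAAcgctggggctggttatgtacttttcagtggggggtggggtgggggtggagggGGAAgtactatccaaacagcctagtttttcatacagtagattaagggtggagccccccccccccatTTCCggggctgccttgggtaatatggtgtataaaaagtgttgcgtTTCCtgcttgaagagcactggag
Lpo: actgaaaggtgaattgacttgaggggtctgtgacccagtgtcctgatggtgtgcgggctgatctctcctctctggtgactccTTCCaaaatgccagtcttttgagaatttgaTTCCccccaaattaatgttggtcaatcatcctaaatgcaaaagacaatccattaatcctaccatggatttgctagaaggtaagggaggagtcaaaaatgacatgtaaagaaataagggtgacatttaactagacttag
Ceacam10: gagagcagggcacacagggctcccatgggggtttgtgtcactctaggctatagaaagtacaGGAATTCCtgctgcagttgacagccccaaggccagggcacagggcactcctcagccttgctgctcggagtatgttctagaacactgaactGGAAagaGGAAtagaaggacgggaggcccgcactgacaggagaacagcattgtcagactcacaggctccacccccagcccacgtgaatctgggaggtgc
Ambp: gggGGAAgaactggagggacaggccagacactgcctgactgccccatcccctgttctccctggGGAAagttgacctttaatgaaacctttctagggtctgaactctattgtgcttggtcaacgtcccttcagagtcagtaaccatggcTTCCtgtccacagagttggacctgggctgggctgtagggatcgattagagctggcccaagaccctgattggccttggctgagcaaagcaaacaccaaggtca
Alpi: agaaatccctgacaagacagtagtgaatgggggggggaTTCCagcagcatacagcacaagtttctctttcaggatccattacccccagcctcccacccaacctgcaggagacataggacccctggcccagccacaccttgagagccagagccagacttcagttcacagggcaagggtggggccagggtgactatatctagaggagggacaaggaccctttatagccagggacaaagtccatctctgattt
Id4: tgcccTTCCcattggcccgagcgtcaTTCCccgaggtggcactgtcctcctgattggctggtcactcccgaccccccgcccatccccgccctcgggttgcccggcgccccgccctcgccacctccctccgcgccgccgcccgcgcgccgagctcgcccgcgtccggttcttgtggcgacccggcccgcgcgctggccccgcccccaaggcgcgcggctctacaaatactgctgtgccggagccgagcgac

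The core was present in all 6 stretches, 4 times in those of Cd177 and Ceacam10, 3 times in that of Ambp, 2 times in those of Lpo and Id4 and 1 time in that of Alpi. So short a motif is found almost everywhere, since 93.4% of 27025 promoter stretches of this length and 93.3% of the 10468 that belong to tested genes held it on either strand. It was in 39 of the 43 stretches of genes that fell (90.7%) and in 37 of the 39 of genes that rose (94.9%). The longer motif GGAAGT, which contains the core, was in 12 of 43 stretches of genes that fell (27.9%), in 3 of 39 of genes that rose (7.69%) and in 23.4% of those of all tested genes. The 8-base motif CCGGAAGT, which contains both, was in none of the stretches of called genes and in 5.84% of those of tested genes. These are matches of letters in a short window before the first listed start of each gene, and they do not show binding.

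The 8 libraries held 7445549 to 8952964 reads counted in genes. Mitochondrial genes took 10.7% to 26.3% of them, and the gene Gm26917 alone took 3.58% to 11.2%. By their counts of Xist and of Y-linked genes, replicates 1 and 2 were female in either group, and replicates 3 and 4 were male. Ehf IKO replicate 2 stood apart: 36109 genes had a count in it, against 23588 to 25966 in the other 7, and 7 satellite-like genes took 10.3% of its counts (95% Wilson interval 10.301% to 10.344%, counting error only) against at most 0.108% elsewhere. All 18 genes on a list of colonic epithelium markers, among them Epcam, Vil1, Cdx2 and Krt20, passed the filter on low counts, so the labelled tissue carried its defining transcripts in these libraries. The first principal component of log2 CPM held 37.6% of the variance and did not separate the groups, since Ehf IKO replicate 4 lay at -34.0, beyond every Control OIL library, and the other 3 Ehf IKO libraries lay at 5.53 to 40.0. The second, with 22.1%, placed the 4 Ehf IKO libraries at 7.66 to 22.9 and the Control OIL libraries at -37.3 to 6.66. Libraries at the ends of the first component differed in their share of Gm26917, with 11.2% in Ehf IKO replicate 4 and 3.58% in replicate 2. The order was not the same throughout, since Control OIL replicate 4, with 4.78%, lay below Ehf IKO replicate 1, with 5.75%. A link between this share and the component was not tested.

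Ehf (chromosome 2, 103263433 to 103303278, minus strand) stood at 476, 451, 391.5 and 385 CPM in Control OIL and at 362, 370, 307 and 320 in Ehf IKO. All Ehf IKO libraries lay below all Control OIL libraries. The log2 fold change of -0.33 ± 0.12 (SE, n = 4 per group) did not pass the edgeR quasi-likelihood test after Benjamini-Hochberg adjustment (adjusted p = 0.28). Control TMX stood at 343 ± 20.9 CPM (mean ± SD, n = 4). Counts over the whole gene do not measure the loss of particular exons, so these values do not check the labels.

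Reads beyond the 3' end of Ehf differed between the labelled groups. The genes there were chosen with earlier results of these data known, so they are no independent check of the labels. Reads were counted without strand, and the strands given here are those of the annotation. Gm13873 (103232538 to 103232964 on the minus strand of chromosome 2), annotated as a processed pseudogene, had 1 count over the Control OIL libraries, in replicate 4. Its levels in Ehf IKO were 21.4, 19.4, 14.8 and 18.4 CPM, 575 counts in all. It rose in the edgeR test (adjusted p = 3.8e-07), and Control TMX had none. The lincRNA Gm13869 (103206209 to 103210357, minus strand) had no count in Control OIL and 27, 21, 9 and 21 in Ehf IKO, too few to be tested. Gm13874, a lincRNA on the other strand (103177787 to 103186681), had 8, 2, 0 and 2 counts in Control OIL and 30, 26, 16 and 18 in Ehf IKO (adjusted p = 0.0443). Its call was lost without any 1 library other than Control OIL replicate 1 and Ehf IKO replicate 4 (adjusted p up to 0.137), while Gm13873 was called whichever library was left out.

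Of 15129 genes that passed the filter, 56 were higher (0.37%) and 56 lower (0.37%) in Ehf IKO than in Control OIL by the edgeR quasi-likelihood test at a Benjamini-Hochberg adjusted p under 0.05. Together they were 0.74% of the genes tested. At an unadjusted p under 0.05 there were 943 higher (6.23%) and 706 lower (4.67%). The median log2 fold change over all tested genes was -0.009, a value that the scaling itself holds near 0. In 71 of the called genes the change was at least 2-fold, 40 of them higher and 31 lower. The median log2 fold change was 1.24 among the genes that rose and -1.19 among those that fell. In every called gene the libraries of the 2 groups did not overlap, which over all tested genes was so for 499 genes above (3.3%) and 503 below (3.32%). Levels below are in CPM scaled with TMM factors, in the order of replicates 1 to 4, with log2 fold changes ± SE at n = 4 per group and adjusted p from the same edgeR test.

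**Figure D1:**
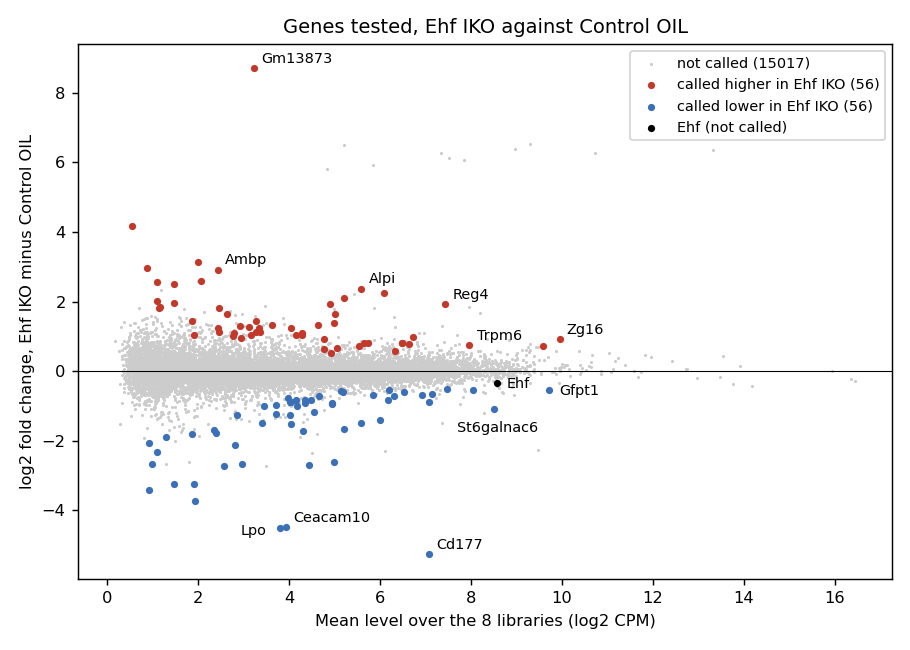
Log2 fold change of Ehf IKO minus Control OIL for each of the 15129 tested genes (vertical axis) against its mean level over the 8 libraries in log2 CPM (horizontal axis). The 56 genes called higher are red, the 56 called lower are blue and Ehf is black. The falls of Cd177, Lpo and Ceacam10 lie lowest, and the grey points near 6 are satellite-like genes that were high in Ehf IKO replicate 2 alone.

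The number of calls depended on single libraries. It was 8 higher and 13 lower without Ehf IKO replicate 3, 15 and 18 without Ehf IKO replicate 1, 29 and 29 without Ehf IKO replicate 2, and 330 and 194 without Ehf IKO replicate 4. Without a Control OIL library there were 34 higher and 36 lower (replicate 1), 27 and 38 (replicate 2), 33 and 51 (replicate 3) or 23 and 27 (replicate 4). Without Ehf IKO replicate 2, the library with satellite-like reads, 48 of the called genes remained called, and without Ehf IKO replicate 4 all but 1 did, Slc7a9. In all 8 such fits 18 genes remained called, of which 11 fell and 7 rose. The 11 included Cd177, Lpo, Ceacam10, St6galnac6, Pglyrp1, Ggh, Scn2b, Gm10384, Capn13 and Adgrf1, and the 7 were Gm13873, Ambp, Klk15, Alpi, Id4, Ghr and Reg4.

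The largest falls among the called genes were those of Cd177, Lpo and Ceacam10. Cd177 (chromosome 7, 24743983 to 24760311) encodes a GPI-anchored glycoprotein best known from the surface of neutrophils. It stood at 242, 202, 320 and 285 CPM in Control OIL and at 7.20, 4.13, 7.40 and 8.38 in Ehf IKO, so that every Ehf IKO library was far below every Control OIL library. It fell by 5.27 ± 0.22 on the log2 scale (edgeR adjusted p = 3.8e-07). In Control TMX it stood at 91.4 ± 10.7 CPM, between the other groups. That level was itself lower than in Control OIL (log2 fold change -1.52, adjusted p = 0.002 in an edgeR fit of all 12 libraries) and higher than in Ehf IKO (-3.75 for Ehf IKO minus Control TMX, adjusted p = 6.5e-08).

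Lpo (chromosome 11, 87806428 to 87828289) encodes lactoperoxidase, a secreted enzyme that makes antibacterial oxidants from hydrogen peroxide. Its levels were 30.0, 32.4, 19.9 and 21.5 CPM in Control OIL and 1.51, 1.38, 0.661 and 0.931 in Ehf IKO, with 19.2 ± 3.21 in Control TMX. The female libraries, replicates 1 and 2, were the higher ones within both groups, a difference that was not tested, and the groups did not overlap. Lpo fell by 4.51 ± 0.26 on the log2 scale (edgeR adjusted p = 4.8e-06).

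Ceacam10 (chromosome 7, 24777206 to 24784657), of the carcinoembryonic antigen family, lies near Cd177. It stood at 32.7, 23.8, 32.4 and 26.3 CPM in Control OIL and at 0.581, 1.10, 0.661 and 2.79 in Ehf IKO, where replicate 4 was the highest and still far under the lowest control. It fell by 4.49 ± 0.34 on the log2 scale (edgeR adjusted p = 1.2e-04). Its level in Control TMX was 7.29 ± 1.10 CPM, also lower than in Control OIL (-1.97, adjusted p = 0.00404). Its counts rest on uniquely mapped reads, since the family has close relatives.

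Plet1 (chromosome 9, 50494525 to 50505482) encodes a surface protein of epithelial progenitors. It stood at 75.0, 66.3, 35.3 and 39.8 CPM in Control OIL and at 13.0, 7.44, 10.3 and 4.26 in Ehf IKO, with 35.8 ± 1.57 in Control TMX. Even the lowest control was above the highest Ehf IKO library. Plet1 fell by 2.62 ± 0.35 on the log2 scale (edgeR adjusted p = 0.0166), which was 0.0687 without Ehf IKO replicate 2 and also above the threshold without replicate 3. The antisense gene Plet1os, whose span overlaps it, fell by 2.67 ± 0.46, and without strand the reads of this pair cannot be told apart.

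Of 42 tested genes on a list of antimicrobial and bacterial sensing genes, 5 fell and 1 rose, against a background of 0.37% in each direction over all tested genes. The list's median log2 fold change was -0.15, against -0.009 over all genes. The 5 were Cd177, Lpo, Plet1, Pglyrp1 and Tlr2. This list and those below were written with earlier results of these data known. Counts of called members therefore describe the lists and do not test them. Pglyrp1, which encodes a peptidoglycan recognition protein that binds bacterial cell walls, stood at 60.2, 49.4, 63.7 and 51.5 CPM in Control OIL and at 19.2, 13.2, 18.5 and 20.6 in Ehf IKO. The 2 groups were far apart relative to the spread within each. Pglyrp1 fell by 1.65 ± 0.15 on the log2 scale (edgeR adjusted p = 2.9e-04), and Control TMX lay between at 35.3 ± 4.77 CPM. Tlr2, the receptor for bacterial lipoproteins, stood at 30.2, 25.4, 26.6 and 23.8 CPM in Control OIL and at 13.4, 10.6, 18.9 and 13.7 in Ehf IKO (-0.90 ± 0.17, adjusted p = 0.0339). Its call was lost without any Control OIL library and without Ehf IKO replicate 1 or 2, up to an adjusted p of 0.123. The member that rose was Zg16, described with the secretory genes.

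Wfdc18 and Apol10a, which were on no list, also fell. Wfdc18, a secreted protein of the whey acidic protein family, stood at 2.91, 3.41, 5.70 and 5.72 CPM in Control OIL and at 0.232, 0, 0.793 and 0.798 in Ehf IKO (-3.25 ± 0.53, edgeR adjusted p = 0.0187). Apol10a, an apolipoprotein L gene, stood at 196, 166, 157 and 181 CPM and at 111, 119, 84.3 and 63.0 (-0.89 ± 0.18, adjusted p = 0.046). In neither gene did the groups overlap. Wfdc18 was lost from the calls without Control OIL replicate 4 and without Ehf IKO replicate 1 or 3 (up to 0.076). Apol10a was lost without any Control OIL library and without Ehf IKO replicate 1 or 3 (up to 0.161).

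The falls included 7 genes that supply or transfer sugars for glycoproteins and glycolipids, which were grouped after their values were seen. St6galnac6, a sialyltransferase that adds sialic acid to glycolipids and glycoproteins, stood at 474, 481, 515 and 500 CPM in Control OIL and at 236, 224, 233 and 240 in Ehf IKO. Both groups were tight and far apart. It fell by 1.08 ± 0.10 on the log2 scale (edgeR adjusted p = 2.9e-04), while Control TMX stood at 451 ± 56.9 CPM, close to Control OIL (-0.13, adjusted p = 0.628). A4gnt, which caps mucin chains with alpha-linked N-acetylglucosamine, stood at 18.3, 18.4, 10.4 and 14.0 CPM in Control OIL and at 6.04, 5.79, 5.29 and 4.65 in Ehf IKO (-1.48 ± 0.20, adjusted p = 0.00868). It lost its call only without Ehf IKO replicate 3 (0.0527).

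Galnt12, one of the enzymes that start mucin-type O-glycans, stood at 126, 123, 97.4 and 99.0 CPM in Control OIL and at 72.0, 64.4, 78.1 and 81.1 in Ehf IKO (-0.59 ± 0.12, edgeR adjusted p = 0.0469). Fut2, the fucosyltransferase that builds the H antigen on secreted and surface glycans, stood at 222, 214, 195 and 207 CPM and at 164, 131, 147.4 and 145 (-0.51 ± 0.10, adjusted p = 0.0455). B4galt4, a galactosyltransferase, stood at 50.4, 36.0, 35.9 and 37.5 CPM and at 18.7, 21.5, 17.5 and 25.3 (-0.95 ± 0.15, adjusted p = 0.0187). Groups did not overlap in any of the 3 genes. Of 31 tested genes on a list of mucin-type O-glycosylation, 3 fell (St6galnac6, Galnt12 and Fut2) and none rose, against 0.37% in each direction over all tested genes. Of the 31, 11 were above 0 and 20 below, and the list's median was -0.18, or -0.06 without Control OIL replicate 1.

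Gfpt1 and Slc35a3, which supply sugars rather than transfer them, fell as well. Gfpt1, whose enzyme takes the first and limiting step of the pathway to UDP-N-acetylglucosamine, stood at 1084, 966, 957 and 945 CPM in Control OIL and at 684, 729, 650 and 683 in Ehf IKO (-0.53 ± 0.10, edgeR adjusted p = 0.0458). Slc35a3, which carries UDP-N-acetylglucosamine into the Golgi, stood at 324, 277, 325 and 315 CPM and at 200, 217, 198 and 242 (-0.54 ± 0.11, adjusted p = 0.0469). The lowest control was above the highest Ehf IKO library for both. Control TMX stood between the groups, at 846 ± 30.9 CPM for Gfpt1 and 244 ± 32.2 for Slc35a3. Galnt12, Fut2, Gfpt1 and Slc35a3 each lost their call without any 1 library other than Ehf IKO replicate 4, with adjusted p up to 0.168, 0.152, 0.173 and 0.173. B4galt4 lost it without Ehf IKO replicate 1 or 3 (up to 0.0921).

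**Figure D2:**
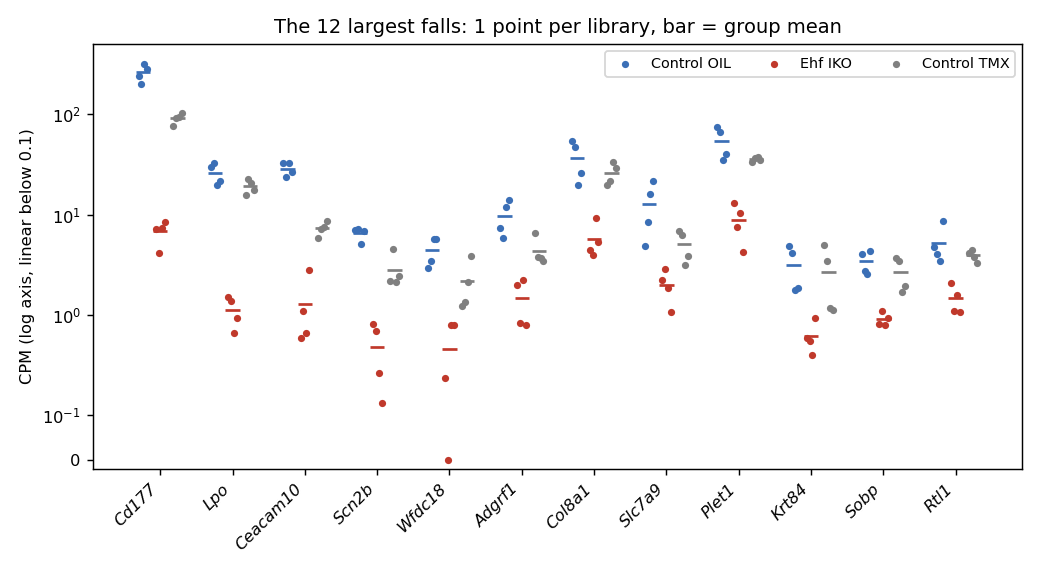
Levels in CPM (vertical axis, logarithmic above 0.1 and linear below) of the 12 largest falls with a mean log2 CPM of at least 1, with 1 point per library and a bar at each group mean. Blue is Control OIL, red is Ehf IKO and grey is Control TMX. The red points lie below the blue points in all 12 genes, and for Cd177 and Ceacam10 the grey points lie between.

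Among receptors and channels, Scn2b, the beta 2 subunit of voltage-gated sodium channels, stood at 7.06, 7.26, 5.07 and 6.90 CPM in Control OIL and at 0.813, 0.689, 0.264 and 0.133 in Ehf IKO (-3.73 ± 0.38, edgeR adjusted p = 8.2e-04). Adgrf1, an adhesion G protein-coupled receptor, stood at 7.34, 5.83, 11.8 and 13.9 CPM and at 1.98, 0.827, 2.25 and 0.798 (-2.71 ± 0.38, adjusted p = 0.0123). Vipr2, a receptor for vasoactive intestinal peptide, stood at 9.28, 9.90, 3.67 and 6.41 CPM and at 2.67, 2.34, 2.51 and 1.46 (-1.69 ± 0.33, adjusted p = 0.0421). All 3 were low in every Ehf IKO library. Scn2b and Adgrf1 were called whichever library was left out, while Vipr2 was called only if Control OIL replicate 3 or else Ehf IKO replicate 4 was left out, with an adjusted p up to 0.131 in the other fits. Col8a1, a short-chain collagen, stood at 54.4, 47.6, 19.9 and 26.0 CPM in Control OIL and at 4.42, 4.00, 9.25 and 5.32 in Ehf IKO (-2.68 ± 0.38, adjusted p = 0.0187). It was higher in the female than in the male Control OIL libraries, and its call was lost without Ehf IKO replicate 1 or 2 (up to 0.0778). Robo2, a receptor for Slit guidance proteins, stood at 24.9, 21.8, 41.6 and 30.7 CPM and at 7.55, 5.37, 11.1 and 12.2 (-1.71 ± 0.27, adjusted p = 0.0187), which was lost without Control OIL replicate 4 and without Ehf IKO replicate 1 or 3 (up to 0.076).

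Genes of amino acid, folate and protein turnover were also among the falls. Ggh, the lysosomal enzyme that trims polyglutamate from folates, stood at 108.5, 89.7, 86.6 and 87.7 CPM in Control OIL and at 34.3, 38.6, 26.2 and 41.2 in Ehf IKO (-1.41 ± 0.14, edgeR adjusted p = 8.2e-04). Capn13, a calcium-dependent protease, stood at 54.4, 55.0, 78.9 and 92.0 CPM and at 23.6, 20.9, 28.7 and 27.8 (-1.47 ± 0.18, adjusted p = 0.00506). The male libraries were the higher ones in Control OIL for Capn13, and in Ehf IKO replicates 3 and 4 were also above 1 and 2. Asns, which makes asparagine and is a known target of the amino acid response, stood at 29.4, 22.9, 26.5 and 24.6 CPM in Control OIL and at 14.3, 12.7, 15.1 and 15.7 in Ehf IKO (-0.84 ± 0.13, adjusted p = 0.0166). Its level in Control TMX, 16.1 ± 4.00 CPM, was near that of Ehf IKO (-0.17 for Ehf IKO minus Control TMX, adjusted p = 0.744 in the fit of 12 libraries), and its call was lost without Ehf IKO replicate 1 or 3 (up to 0.0659).

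The 2 subunits of 1 amino acid transporter moved in opposite directions. Slc7a9 encodes the transport subunit of the carrier for cystine and basic amino acids, and Slc3a1 its partner that brings it to the membrane. Slc7a9 stood at 4.85, 8.36, 16.1 and 21.6 CPM in Control OIL and at 2.21, 2.89, 1.85 and 1.06 in Ehf IKO (-2.67 ± 0.48, edgeR adjusted p = 0.0404). Slc3a1 stood at 17.0, 18.0, 14.1 and 21.2 CPM in Control OIL and at 50.8, 62.0, 45.1 and 27.1 in Ehf IKO (1.39 ± 0.22, adjusted p = 0.0203). The spread was wide in the Control OIL libraries for Slc7a9, where replicates 3 and 4 were highest, and Ehf IKO replicate 4 was the lowest of its group for both genes. Slc7a9 was called only without Control OIL replicate 1 or 2 (adjusted p up to 0.141 otherwise), and Slc3a1 was lost without Control OIL replicate 1 or 2 and without Ehf IKO replicate 1 or 3 (up to 0.0779).

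The rises included transport genes of the absorptive surface. On a list of calcium, magnesium and trace metal transport, 4 of 23 tested genes rose and none fell, against 0.37% in each direction over all tested genes. The list's median log2 fold change was 0.29, and 18 of the 23 members were above 0, against 48.4% over all genes. Without Ehf IKO replicate 2 the median was 0.13.

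Trpv6, the apical calcium channel of the intestine, stood at 11.5, 8.47, 20.7 and 15.0 CPM in Control OIL and at 80.4, 66.6, 63.9 and 28.7 in Ehf IKO (2.11 ± 0.35, edgeR adjusted p = 0.0354). S100g, the calbindin that carries calcium through the cell, stood at 19.9, 8.69, 12.9 and 8.77 CPM and at 57.5, 50.0, 56.7 and 25.0 (1.93 ± 0.33, adjusted p = 0.0354). Slc34a2, a sodium and phosphate cotransporter, stood at 17.7, 29.9, 26.0 and 21.0 CPM and at 146, 153.4, 106.8 and 45.9 (2.25 ± 0.36, adjusted p = 0.0318). In all 3 genes Ehf IKO replicate 4 was the lowest of its group, although it was still above every Control OIL library. Trpm6, the apical magnesium channel, stood at 166, 231, 189 and 161 CPM and at 321, 304, 344 and 291 (0.76 ± 0.13, adjusted p = 0.0236), with little spread in Ehf IKO.

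Control TMX differed among these 4 genes. For S100g it stood at 43.6 ± 17.7 CPM, near Ehf IKO (0.11 for Ehf IKO minus Control TMX, adjusted p = 0.935 in the edgeR fit of 12 libraries). For Trpv6 it stood at 19.8 ± 2.76 CPM, nearer to Control OIL (1.59 for Ehf IKO minus Control TMX, adjusted p = 0.0279). Slc34a2 stood at 35.1 ± 17.1 CPM (1.67, adjusted p = 0.113) and Trpm6 at 206 ± 41.4 (0.61, adjusted p = 0.0685). All 4 calls against Control OIL depended on single libraries. Slc34a2 was called only without Ehf IKO replicate 4 (up to 0.119 otherwise). Trpv6 was called without that library or Control OIL replicate 3 (up to 0.114), S100g without it or Control OIL replicate 1 (up to 0.111), and Trpm6 without it or Control OIL replicate 2 (up to 0.105).

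Alpi (chromosome 1, 87098002 to 87101606), the intestinal alkaline phosphatase of the brush border, stood at 12.7, 18.9, 10.3 and 19.9 CPM in Control OIL and at 79.1, 111, 77.5 and 55.3 in Ehf IKO. The lowest Ehf IKO library, replicate 4, was well above the highest control. Alpi rose by 2.38 ± 0.25 on the log2 scale (edgeR adjusted p = 0.00282). Control TMX lay between at 33.2 ± 4.39 CPM (1.28 for Ehf IKO minus Control TMX, adjusted p = 0.0113). Close relatives share sequence with Alpi, and its counts rest on uniquely mapped reads. On a brush border list, 18 of 25 tested genes were above 0, with a median of 0.25, and none fell. Vill, a villin-like actin-binding protein outside the list, stood at 10.9, 14.4, 11.4 and 18.7 CPM in Control OIL and at 39.3, 35.7, 40.3 and 25.0 in Ehf IKO (1.33 ± 0.20, adjusted p = 0.0156), which was 0.0644 without Ehf IKO replicate 3.

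Secretory products rose in part. Reg4 (chromosome 3, 98222156 to 98236748) encodes a secreted lectin of deep crypt secretory cells in the colon. It stood at 95.3, 67.5, 72.8 and 49.7 CPM in Control OIL and at 221, 290, 196 and 382 in Ehf IKO, where replicate 4 was the highest, the reverse of its place among the transport genes. It rose by 1.93 ± 0.24 on the log2 scale (edgeR adjusted p = 0.00738), and Control TMX stood at 61.8 ± 23.9 CPM, near Control OIL (-0.20, adjusted p = 0.809). Reg4 was the 1 called gene among 9 tested on a list of deep crypt secretory and Paneth-type genes (0.37% in each direction over all tested genes). Of the 9, 5 were above 0 and 4 below. The list's summed levels overlapped at 1119 to 2055 CPM in Control OIL and 1224 to 1832 in Ehf IKO. Zg16, a goblet cell lectin that binds Gram-positive bacteria, stood at 700, 750, 508 and 786 CPM in Control OIL and at 1171, 1545, 1360 and 1098 in Ehf IKO (0.92 ± 0.16, adjusted p = 0.0254). Sycn, a protein of secretory granules, stood at 58.6, 69.5, 82.5 and 72.2 CPM and at 103, 122, 149 and 185 (0.98 ± 0.17, adjusted p = 0.028). The groups did not overlap in these 3 genes. Zg16 was called in 3 and Sycn in 4 of the 8 fits that leave out a library, and both reached their highest adjusted p without Ehf IKO replicate 3 (0.105 for Zg16 and 0.107 for Sycn).

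The goblet cell list as a whole did not move one way. Of 28 tested members, 1 rose (Zg16) and 1 fell (Galnt12), against 0.37% in each direction over all tested genes. Of the 28, 12 were above 0 and 16 below, with a median of -0.07. Muc2, the gel-forming mucin of the colon, stood at 17250, 20570, 10120 and 14820 CPM in Control OIL and at 12600, 13110, 12740 and 10400 in Ehf IKO, overlapping values (-0.36 ± 0.20, edgeR adjusted p = 0.586). Spdef, the ETS factor of goblet cells, stood at 96.2, 128, 68.9 and 83.0 CPM and at 60.0, 54.4, 51.0 and 49.3. Its groups did not overlap, and its difference of -0.81 ± 0.17 just missed the threshold (adjusted p = 0.0545, and 5.6e-08 to 0.175 over the alternatives). Of 18 tested ETS genes other than Ehf, none was called, and the median was 0.04.

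Tgm3 and Cps1 were also among the rises. Tgm3, a transglutaminase that crosslinks proteins, stood at 509, 589, 697 and 511 CPM in Control OIL and at 933, 928, 1079 and 887 in Ehf IKO (0.73 ± 0.13, edgeR adjusted p = 0.0288). Cps1, the first enzyme of the urea cycle, stood at 21.3, 20.1, 12.03 and 9.76 CPM and at 42.5, 64.5, 36.0 and 52.5 (1.63 ± 0.27, adjusted p = 0.0252). In each the lowest Ehf IKO library was above the highest control. Both lost their calls without Ehf IKO replicate 1, 2 or 3 and without 1 or more Control OIL libraries. Those Control OIL libraries were replicate 3 for Cps1 and replicates 1, 2 and 4 for Tgm3. The highest edgeR adjusted p was 0.0641 for Cps1, without Ehf IKO replicate 1, and 0.116 for Tgm3, without Ehf IKO replicate 3.

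Of 89 tested genes of xenobiotic metabolism, 3 rose and none fell, against 0.37% in each direction over all tested genes. The list had 67 members above 0 and a median of 0.27. Fmo1, a flavin monooxygenase, stood at 0.415, 1.76, 1.39 and 0.887 CPM in Control OIL and at 4.76, 4.82, 5.55 and 12.5 in Ehf IKO (2.60 ± 0.44, edgeR adjusted p = 0.0236). Mgst1, a membrane-bound glutathione transferase, stood at 75.2, 63.9, 71.2 and 49.5 CPM and at 101, 115, 97.3 and 140 (0.81 ± 0.15, adjusted p = 0.0354). Gsta3, of a family with close copies, stood at 12.1, 8.69, 15.3 and 13.1 CPM and at 22.8, 20.7, 25.5 and 37.1 (1.11 ± 0.21, adjusted p = 0.04). Ehf IKO replicate 4 was the highest library for all 3. Fmo1 lost its call when Control OIL replicate 1, its replicate 4 or Ehf IKO replicate 3 was left out (up to 0.0759). Mgst1 kept its call only when the library left out was Control OIL replicate 1 or Ehf IKO replicate 4 (up to 0.0904 in the other fits). Gsta3 kept its call only when Control OIL replicate 3 or either of Ehf IKO replicates 2 and 4 was left out (up to 0.12).

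Several low or moderate transcripts were raised in each Ehf IKO library. Id4, an inhibitor of basic helix-loop-helix factors, stood at 1.80, 2.09, 2.79 and 2.56 CPM in Control OIL and at 6.97, 10.5, 6.87 and 8.78 in Ehf IKO (1.83 ± 0.23, edgeR adjusted p = 0.00527). It was the 1 called gene among 28 tested genes of the BMP, TGF-beta and Id list (0.37% in each direction over all tested genes). Ghr, the growth hormone receptor, stood at 13.9, 10.2, 12.5 and 13.6 CPM and at 26.5, 28.9, 24.1 and 24.1 (1.05 ± 0.14, adjusted p = 0.00545). Ambp, the precursor of alpha-1-microglobulin and bikunin, stood at 0.969, 1.43, 1.14 and 1.28 CPM and at 11.2, 12.7, 5.68 and 7.58 (2.92 ± 0.30, adjusted p = 0.00103). These 3 genes were called whichever library was left out, and so was the kallikrein gene Klk15. Klk15 stood at 0.139, 0.11, 0.127 and 0.0985 CPM in Control OIL and at 3.02, 2.21, 1.59 and 2.66 in Ehf IKO (4.18 ± 0.45, adjusted p = 0.00113). Its 0.0985 CPM in Control OIL replicate 4 is 1 count, so its fold change and SE rest on very few control reads. Syt8, a synaptotagmin of vesicle release, stood at 2.22, 3.52, 3.42 and 2.46 CPM and at 8.25, 6.75, 10.7 and 11.04 (1.65 ± 0.24, adjusted p = 0.0123), with 0.063 without Ehf IKO replicate 3.

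**Figure D3:**
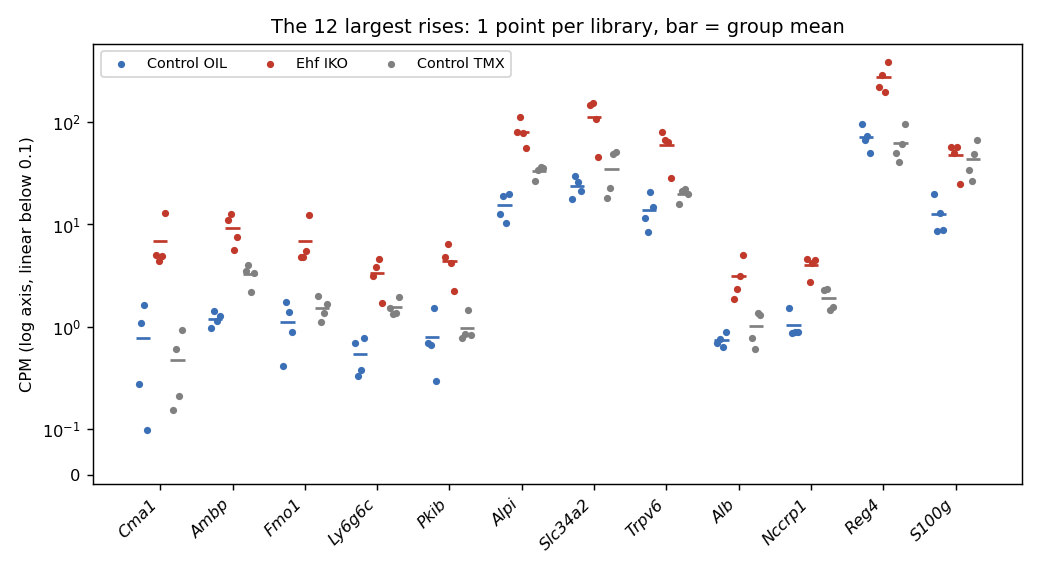
Levels in CPM (vertical axis, logarithmic above 0.1 and linear below) of the 12 largest rises with a mean log2 CPM of at least 1, with 1 point per library and a bar at each group mean. Blue is Control OIL, red is Ehf IKO and grey is Control TMX. The red points lie above the blue points in all 12 genes, and for S100g the grey points reach the red ones.

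Lists on other functions of the epithelium held few or no called genes. None of 33 tested desmosome and adherens junction genes was called, though 25 were above 0, 10 were higher at an unadjusted p under 0.05 (6.23% over all genes) and in 9 all Ehf IKO libraries lay above all Control OIL libraries (3.3% over all genes). Among 28 tight junction genes none was called either. The claudin gene Cldn4 stood at 49.0, 55.3, 30.3 and 52.2 CPM in Control OIL and at 141, 132, 118 and 65.2 in Ehf IKO (1.29 ± 0.25, edgeR adjusted p = 0.0557, and 1.8e-14 to 0.171 over the alternatives). Of 23 immediate early genes none was called and 10 were higher at an unadjusted p under 0.05 (6.23% over all genes). Fos, an AP-1 subunit, stood at 101, 152, 108.9 and 130 CPM and at 202, 200, 179 and 174 without overlap (0.62 ± 0.13, adjusted p = 0.0573, and 6.2e-04 to 0.181 over the alternatives).

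The cell cycle, stem cell, enteroendocrine and tuft cell lists held no called gene. The cell cycle and DNA replication list had 38 tested members, a median of -0.01 and no call, with 1 higher and 9 lower at an unadjusted p under 0.05, against 6.23% and 4.67% over all genes. The stem cell and Wnt target list had 27 and a median of -0.07, the enteroendocrine list 21 and -0.22, and the tuft cell list 21 and 0.27. Interferon-stimulated and MHC class I genes had 48 tested members and a median of -0.07. Nuclear genes of oxidative phosphorylation had 70 and a median of -0.04, with no member past even the unadjusted threshold. Of 36 unfolded protein and integrated stress genes 27 were below 0, with a median of -0.25 and 1 called fall, Asns. The differentiated colonocyte list had 1 called rise of 39, Trpm6, with 32 above 0 and a median of 0.23. Over all tested genes 0.37% were called in each direction.

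**Figure D4:**
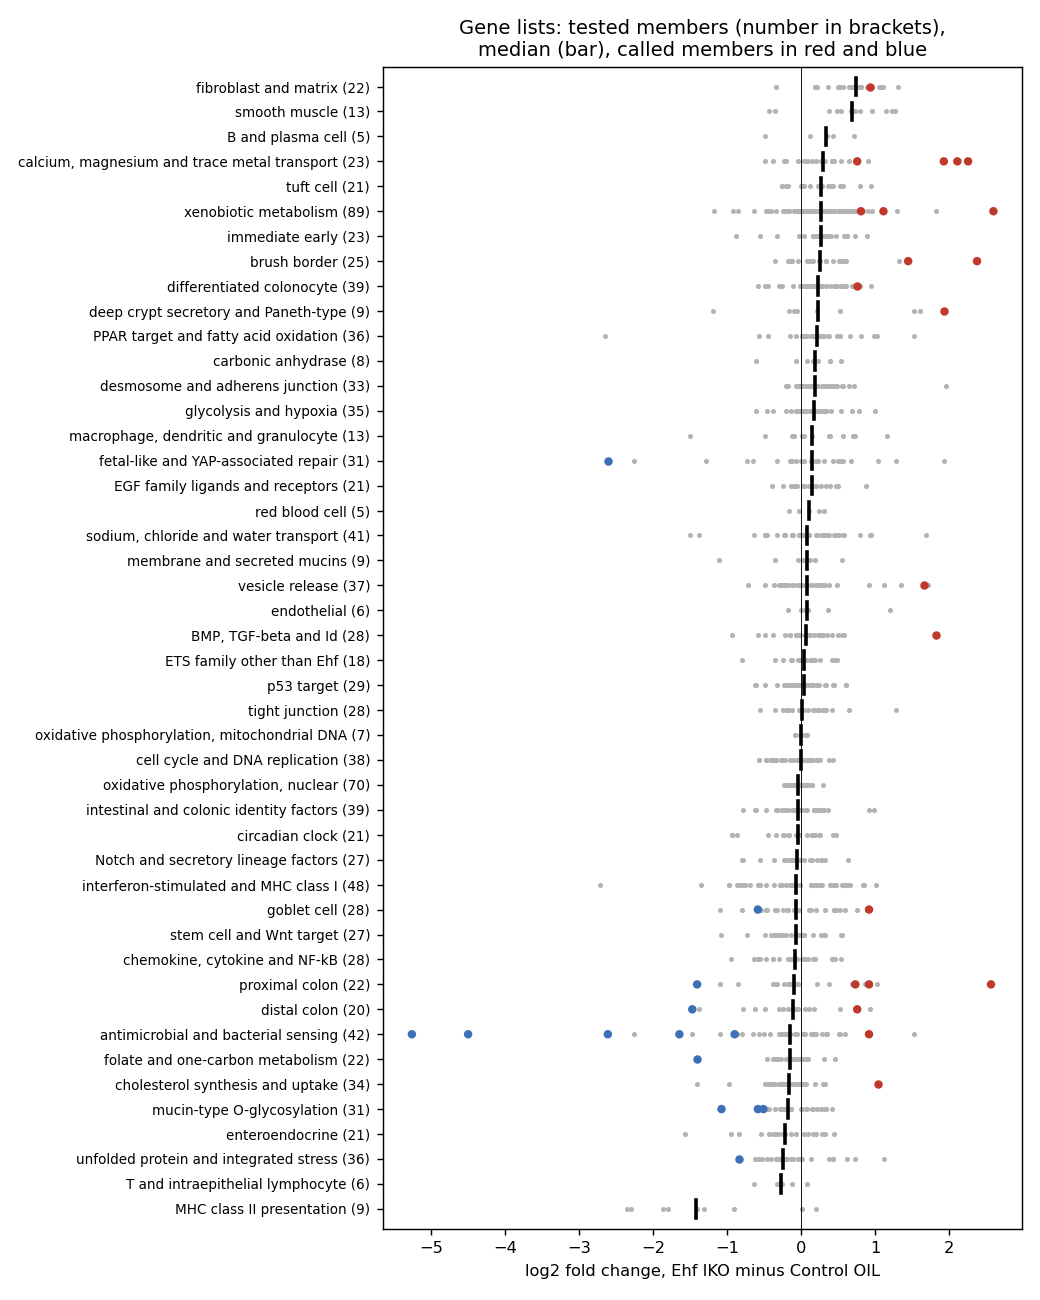
Log2 fold change of Ehf IKO minus Control OIL (horizontal axis) for the tested members of each gene list with at least 5 of them (vertical axis, number of tested members in brackets). Points are genes, red if called higher and blue if called lower, and the black bar is the list's median. The MHC class II list has the lowest median at -1.42 and the fibroblast and matrix list the highest at 0.74.

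Markers of other cell types moved with some of these groups. The fibroblast and matrix list had 21 of 22 tested members above 0, a median of 0.74 and 14 members higher at an unadjusted p under 0.05 (6.23% over all genes), but only Col5a1 was called (0.37% over all genes). Its summed level was 712 to 930 CPM in Control OIL and 1546, 877, 1933 and 1343 in Ehf IKO, with 830 to 1404 in Control TMX. Ehf IKO replicate 2 was thus within the Control OIL range, and without Ehf IKO replicate 3 the list's median was 0.47. Col5a1, a fibrillar collagen, stood at 18.7, 16.5, 21.0 and 18.0 CPM in Control OIL and at 37.3, 21.8, 40.5 and 41.2 in Ehf IKO (0.92 ± 0.19, edgeR adjusted p = 0.0469), which was 0.163 without Ehf IKO replicate 3 and was also lost without Ehf IKO replicate 1 or any Control OIL library. The matrix genes Col15a1 (1.14 ± 0.20, adjusted p = 0.028) and Nid1 (1.01 ± 0.20, adjusted p = 0.0469), chosen after their values were seen, rose too. The collagen gene Col8a1, described above, fell (-2.68 ± 0.38, edgeR adjusted p = 0.0187). Nid1 lost its call without any 1 library other than Ehf IKO replicate 4 (up to 0.163), and Col15a1 without any but that one and Control OIL replicate 1 (up to 0.107). In bulk RNA, more cells of a type and more RNA per cell cannot be told apart.

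The smooth muscle list summed to 104 to 152 CPM in Control OIL and 100 to 200 in Ehf IKO, with a median log2 fold change of 0.68 over 13 tested genes and no call. Only 4 of 13 mast cell genes were tested, and the summed levels of all 13 overlapped at 52.3 to 101 and 67.7 to 82.8 CPM. Cma1, a mast cell chymase, was called and stood at 0.277, 1.10, 1.65 and 0.0985 CPM in Control OIL and at 5.00, 4.41, 4.89 and 13.0 in Ehf IKO (3.13 ± 0.61, edgeR adjusted p = 0.0469). It lost the call without Ehf IKO replicate 1, 2 or 3 and without Control OIL replicate 1, 2 or 4 (up to 0.108). None of the 13 tested genes of macrophages, dendritic cells and granulocytes was called, and the sums over all 28 members were 49.6 to 73.0 CPM in Control OIL and 47.9 to 88.7 in Ehf IKO. For T cells 6 of 23 genes were tested, with sums over all members of 27.9 to 66.7 and 32.3 to 49.6 CPM. For B cells it was 5 of 15, with sums over all members of 67.0 to 118 and 52.1 to 186. No member of these lists was at 0 in all 8 libraries. The part of stromal RNA in the rises of matrix genes, and of mast cells in that of Cma1, was not tested.

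MHC class II genes, which present antigen to helper T cells, had the lowest median of the lists, -1.42 over 9 tested members, with no call. The summed level of all 13 members was 339, 214, 864 and 238 CPM in Control OIL and 231, 254, 259 and 234 in Ehf IKO, so the difference rested on Control OIL replicate 3 and in part on replicate 1. Without Control OIL replicate 3 the median was -0.59. Ciita, the master activator of these genes, stood at 11.6, 4.29, 23.1 and 10.7 CPM in Control OIL and at 6.16, 4.69, 4.63 and 2.93 in Ehf IKO, overlapping values (-1.42 ± 0.44, edgeR adjusted p = 0.221, and 4.0e-04 to 0.488 over the alternatives).

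**Figure D5:**
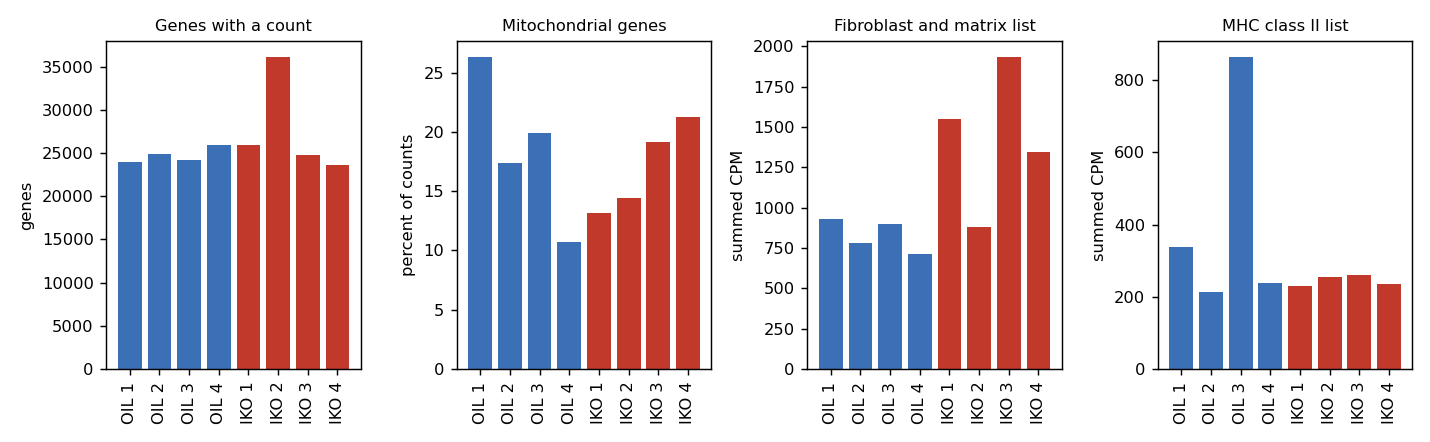
The measures of each of the 8 libraries as bars from 0: genes with a count, percent of counts in mitochondrial genes, and the summed CPM of the fibroblast and matrix list and of the MHC class II list. Blue bars are Control OIL (OIL) and red bars Ehf IKO (IKO), numbered by replicate. Ehf IKO replicate 2 has 36109 genes with a count, and Control OIL replicate 3 has the MHC class II sum of 864 CPM.

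Each of the 3 contrasts among the groups had its own number of calls in the edgeR fit of all 12 libraries. For Ehf IKO against Control OIL that fit called 145 genes higher and 120 lower. Ehf IKO differed from Control TMX in 126 of 15743 tested genes (0.8%), and Control TMX from Control OIL in 13 (0.0826%). The contrast of Ehf IKO with Control TMX shares its Ehf IKO libraries with the main comparison. That of Control TMX with Control OIL shares its Control OIL libraries, and Control TMX also comes from another breeding line. Against Control TMX, St6galnac6 (-0.95, adjusted p = 3.4e-04), Lpo (-4.07, adjusted p = 2.6e-07) and Reg4 (2.13, adjusted p = 0.00401) had log2 fold changes near those against Control OIL. Asns, S100g, Slc3a1 and Hsd17b2 had smaller ones, at -0.17, 0.11, 0.49 and 0.24, with adjusted p of 0.744, 0.935, 0.342 and 0.537. Hsd17b2, which inactivates oestradiol and testosterone, stood at 70.2, 81.8, 53.8 and 51.3 CPM in Control OIL and at 124, 130, 99.0 and 102 in Ehf IKO (0.83 ± 0.16, adjusted p = 0.0387 in the fit of 8 libraries, and up to 0.123 without Control OIL replicate 1, 3 or 4 or Ehf IKO replicate 1, 2 or 3), with 96.1 ± 7.997 in Control TMX. Mvb12b, a subunit of the ESCRT-I sorting complex, stood at 18.6, 23.97, 20.7 and 20.7 CPM in Control OIL, 12.7, 10.3, 10.3 and 11.8 in Ehf IKO and 29.7 ± 5.84 in Control TMX, so that its fall was larger against Control TMX (-1.39) than against Control OIL (-0.89 ± 0.13, adjusted p = 0.0156, and 0.075 without Ehf IKO replicate 3).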

How the data were processed

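Total RNA of 12 libraries was sequenced, of which the 8 of the EVCER line were compared. Per the file headers, the deposited counts are reads that featureCounts 1.6.1, from Subread, assigned to exons of Ensembl GRCm38 release 98 and summed by symbol, unstranded and without multi-mapping reads. STAR is named in the submitters' processing notes, without a version. Of 55304 symbols, 53529 had a single Ensembl identifier and 8 lay on several chromosomes.

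Counts were scaled with TMM, filtered with filterByExpr by group and tested in edgeR 4.0.16 (R 4.3.3) with a quasi-likelihood fit (legacy and robust settings on) of the 8 libraries. The 15129 genes were adjusted by Benjamini-Hochberg and called at an adjusted p under 0.05. The common biological coefficient of variation was 19.4%, with 6 residual degrees of freedom. Totals of 7445549 to 8952964 counts set the precision of low genes. The p-values measure the spread between these libraries. Each SE was derived from the test, as the size of the log2 fold change divided by the square root of its F statistic. Contrasts with Control TMX came from 1 fit of 12 libraries. The script was tested on simulated data.

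The rule for genes to be named took Ehf, the 12 largest rises and falls among called genes with a mean log2 CPM of at least 1, the 10 of smallest p, the 10 most abundant called in each direction, up to 4 called members per list (or the 1 or 2 of smallest p) and the genes beyond Ehf. A4gnt, B4galt4, Vipr2, Robo2, Slc3a1, Cps1, Vill, Ghr, Col15a1, Nid1, Mvb12b and Plet1os fall outside this rule and were chosen after their values were seen. Tlr2 was not among the 4 called antimicrobial genes of smallest p. Capn13 was not among the largest falls, the smallest p or the most abundant. The members and gene lists were chosen with earlier results of these data known. Some called genes are not reported here.

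The comparison was repeated with the size factors of DESeq2, without a filter, with a minimum mean log2 CPM of 1, in DESeq2 1.42.0, with limma-voom (limma 3.58.1), on all 12 libraries, with a replicate block, with a sex term and without each library in turn. Isoforms and exons were not analysed here.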

Additional observations from a re-analysis of the deposited data

Results flagged for a closer look

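In 13 of 242 groups of 4 libraries examined, 1 library lay apart from the other 3 by more than Dixon's 95% limit, which chance alone gives in about 1 of 20 groups. In Ehf IKO, satellite-like genes took 10.3% of the counts of replicate 2. Cma1 and Fmo1 were highest in Ehf IKO replicate 4, at 13.0 and 12.5 CPM, and Cldn23, a claudin, was lowest there at 31.4 CPM against 45.8 to 47.3 in the other 3. Ighm, an immunoglobulin heavy chain gene, was at 7.67 CPM in Ehf IKO replicate 1 and at 1.72 to 2.53 in the others.

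In Control OIL, replicate 3 was lowest for Scn2b, at 5.07 CPM, and for the carbonic anhydrase gene Car12, at 41.0 CPM against 60.6 to 63.7, and highest for H2-DMa, which loads MHC class II molecules, at 14.8 CPM against 4.95 to 5.68. Replicate 1 was highest for Ggh at 108.5 CPM, Gfpt1 at 1084 CPM, the low gene Nccrp1 at 1.52 CPM and the integrin gene Itgae at 9.14 CPM. Gm13873 had its single Control OIL count in replicate 4, which is 0.0985 CPM.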

How the results depend on the processing

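The counts of 56 genes higher and 56 lower became 248 and 160 with DESeq2, 145 and 120 in 1 fit of all 12 libraries, and 400 and 265 with no filter on low counts. A sex term gave 92 higher, and 82 lower. Same-numbered libraries of the groups matched in sex, and had correlations of -0.398, 0.077, 0.144 and -0.497 in their deviations from group means. Differently numbered ones reached 0.435, for Control OIL replicate 1 with Ehf IKO replicate 4. Since libraries of different numbers also correlated, these values cannot decide whether same-numbered libraries were paired in another way. With the replicate block there were 9 genes higher and 16 lower. Leaving out 1 library gave 8 to 330 higher and 13 to 194 lower. Limma-voom gave 46 and 47, DESeq2 size factors in edgeR 57 and 53, and the filter at a mean log2 CPM of 1 gave 51 and 50. Of the called genes, 111 remained called with DESeq2, 91 with limma-voom and 108 in the fit of 12 libraries. No log2 fold change of a named gene and no count reversed its direction where it had been called.

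Leaving out 1 library moved the medians of 7 lists by more than their spread between libraries: mucin-type O-glycosylation -0.22 to -0.06, calcium, magnesium and trace metal transport 0.13 to 0.37, BMP, TGF-beta and Id -0.04 to 0.1, MHC class II -1.7 to -0.59, unfolded protein and integrated stress -0.3 to -0.15, p53 target -0.04 to 0.07, and fibroblast and matrix 0.47 to 0.83. Where a value changed, the cause was not tested. Depth limits the genes at a few counts per library, such as Klk15, Wfdc18 and Gm13869.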
